A study of Homo sapiens with 6 samples.

Results

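Amphiregulin (AREG) and its relatives are growth factors that bind the epidermal growth factor (EGF) receptor, and 9 genes of this system were followed among the 58243 genes of the count table: the 6 ligand genes AREG, EREG, HBEGF, TGFA, BTC and EPGN and the 3 receptor genes EGFR, ERBB2 and ERBB3. The genes were chosen by family membership with the change of AREG in the same comparison already known, so their values are given as a description and no p-value is printed for them. The RNA came from cells labelled Hep3B, an established human liver cancer line. In the knockdown libraries the cells received si-SNHG17-1, a small interfering RNA (siRNA) directed at SNHG17, a long noncoding RNA. The comparison libraries received the control siRNA, si-NC. There were 3 libraries per group, and untransfected cells were not analysed here. Whether the replicates came from separate cultures is not stated in the labels, and the errors and p-values given here may therefore measure technical spread alone. A single siRNA was used, so the effect of lowering SNHG17 and any other effect of that siRNA cannot be told apart.

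The EGF-family ligands are made as membrane-anchored precursors, and metalloproteases of the ADAM family cut them free at the cell surface. The soluble ligands bind ERBB receptor tyrosine kinases, which pair up, phosphorylate each other and signal through adaptor proteins to the RAS-ERK and PI3K-AKT pathways. Amphiregulin binds EGFR, whereas ERBB2 has no known ligand of its own and acts as a partner, and ERBB3 has little kinase activity and binds neuregulins. In liver, amphiregulin is known as a ligand induced during injury and regeneration.

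SNHG17 was lower in every si-SNHG17-1 library, at 8.03, 8.02 and 8.27 CPM, than in the si-NC libraries, at 22.4, 22.8 and 23.9 CPM. CPM here is the count scaled to a common library size after TMM normalization. The log2 fold change was -1.51 ± 0.12 (SE), with an adjusted p of 0.00101 by edgeR's quasi-likelihood test with Benjamini-Hochberg adjustment. An exact two-sided permutation test gave p = 0.1, and no smaller p can be reached with 3 libraries per group. Total counts were 30207055 to 41620321 in si-SNHG17-1 libraries and 38245838 to 42271168 in si-NC libraries. The defining liver markers were close to absent: 9 of 10 stayed under 1 CPM in all libraries, TTR and GPC3 were at 0, which at 3 counts allows up to 0.0977 CPM, and the cells are called by their label only. Summed CPM of the keratinocyte and squamous markers was 308 to 347 in si-SNHG17-1 libraries and 275 to 297 in si-NC libraries, mostly from SFN. The sum of 5 fibroblast markers was 154 to 165 CPM against 124 to 133 CPM, that of 5 immune markers 42.1 to 60.5 CPM against 33.2 to 39.4 CPM, and that of 4 endothelial markers 5.86 to 7.64 CPM against 2.27 to 3.77 CPM, in si-SNHG17-1 against si-NC libraries. The immune sum was nearly all CD68, at 50.4 CPM in si-SNHG17-1 and 34.9 CPM in si-NC on average, and CD14 and CD3E were lower on average. The endothelial sum was mostly CDH5, at 5.89 CPM in si-SNHG17-1 and 1.70 CPM in si-NC, whereas PECAM1 was at 0.592 CPM and 1.37 CPM in the same groups. Of the defining markers, COL1A2, KDR, MS4A1 and KRT6A were at 0 in all libraries. The part of these marker differences in the results below was not tested.

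AREG, EREG, EPGN and BTC lie together on chromosome 4 of GRCh38. AREG (ENSG00000109321.10) spans 74445134 to 74455009 on the plus strand, EREG 74365143 to 74388751 and EPGN 74308473 to 74315307 on the same strand, and BTC 74744759 to 74794686 on the minus strand. RefSeq promoter windows of GRCh38.p14 were found for 8 of the 9 genes. The 250 bases before the RefSeq start are shown for the chromosome 4 genes, 5′ to 3′ on the strand of the gene. For BTC this start lies inside the span given above, so part of its window lies inside that span too. These genes were shown with the AREG change already known, and no link between the motifs and the changes was tested. Capitals mark matches on either strand to 5 motifs. TGACGTCA is the full cAMP response element, bound by CREB-type factors. It contains its own core motif, TGACG, on both strands. The other motifs were TGANTCA, bound by AP-1. TEAD factors bind GGAATG. The TATA box was searched as TATAAA.

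AREG, chr4:74444886-74445135, plus strand: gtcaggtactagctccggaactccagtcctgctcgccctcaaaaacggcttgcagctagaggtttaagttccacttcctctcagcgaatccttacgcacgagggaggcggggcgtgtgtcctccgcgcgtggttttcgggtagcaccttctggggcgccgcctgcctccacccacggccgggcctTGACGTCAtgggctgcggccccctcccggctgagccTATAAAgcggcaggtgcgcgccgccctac

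EREG, chr4:74364895-74365144, plus strand: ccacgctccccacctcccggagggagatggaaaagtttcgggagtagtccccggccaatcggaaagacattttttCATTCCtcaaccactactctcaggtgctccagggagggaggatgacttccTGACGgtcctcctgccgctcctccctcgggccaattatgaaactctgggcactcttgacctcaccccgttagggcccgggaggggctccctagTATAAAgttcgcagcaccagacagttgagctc

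EPGN, chr4:74308220-74308469, plus strand: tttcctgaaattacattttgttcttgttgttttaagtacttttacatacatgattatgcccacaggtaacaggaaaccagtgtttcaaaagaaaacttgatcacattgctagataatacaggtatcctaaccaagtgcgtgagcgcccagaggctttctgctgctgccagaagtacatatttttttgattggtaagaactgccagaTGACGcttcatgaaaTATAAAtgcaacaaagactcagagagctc

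BTC, chr4:74794524-74794773, minus strand: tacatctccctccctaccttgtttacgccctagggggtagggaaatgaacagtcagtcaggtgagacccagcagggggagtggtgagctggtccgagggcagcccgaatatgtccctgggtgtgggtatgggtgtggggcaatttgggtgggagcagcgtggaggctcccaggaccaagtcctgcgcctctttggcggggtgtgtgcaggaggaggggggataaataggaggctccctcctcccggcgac

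The AREG window held the full cAMP response element TGACGTCA, with its first base 65 bases before the start. It was found in 1.65% of all 35116 promoter windows of this length, and in none of the windows of EREG, EPGN, BTC, HBEGF, TGFA, EGFR and ERBB2. The core TGACG also occurred in EREG, 125 bases before the start, in EPGN, at 44 bases, and in TGFA, at 154 bases, and 21.2% of all windows held it. AREG, EREG and EPGN each had TATAAA beginning 29, 32 and 29 bases before the start. A TATAAA on the gene's strand between 25 and 35 bases before the start was found in 2.17% of windows, and BTC had none. EREG held the only GGAATG match of the chromosome 4 windows, on the opposite strand, against 11.9% of all windows, and TGANTCA, present in 6.57% of all windows, was in none of them. These are matches of letters, not measured binding.

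AREG was the member that stood apart. Its counts were 894, 990 and 816 in si-SNHG17-1 libraries, against 209, 214 and 208 in si-NC libraries. Scaled to depth, AREG had 23.4, 23.5 and 26.6 CPM in si-SNHG17-1 libraries, against 5.55, 5.13 and 5.25 CPM in si-NC libraries. All si-SNHG17-1 libraries lay far above all si-NC libraries, and within each group the 3 values were close, with coefficients of variation of 7.36% in si-SNHG17-1 and 4.09% in si-NC. The mean was 24.5 ± 1.80 CPM in si-SNHG17-1 and 5.31 ± 0.217 CPM in si-NC (SD, n = 3 each), 4.61-fold higher, with a log2 fold change of 2.21 ± 0.13 (SE). AREG ranked 31st by fold change among the 980 genes called higher, and 4th among the 863 of them with a mean of 5 CPM or more. No annotated gene shares exonic bases with AREG, so its counts hold no known overlapping transcript.

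All 9 members passed the filter on low counts, and AREG alone was called, at an edgeR adjusted p under 0.05 over all genes tested. Among all 18679 tested genes, 5.25% were called higher and 5.21% lower, and since this comparison chose the members, nothing is read from their count of 1 higher and 0 lower. The groups did not overlap for 5 members, AREG, EREG and ERBB2 with si-SNHG17-1 higher and EGFR and ERBB3 with si-SNHG17-1 lower. Groups without overlap were found for 16.4% of all tested genes in the higher and 17.3% in the lower direction. The median log2 fold change was 0.05 over the members and -0.002 over all tested genes.

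**Figure D1:**
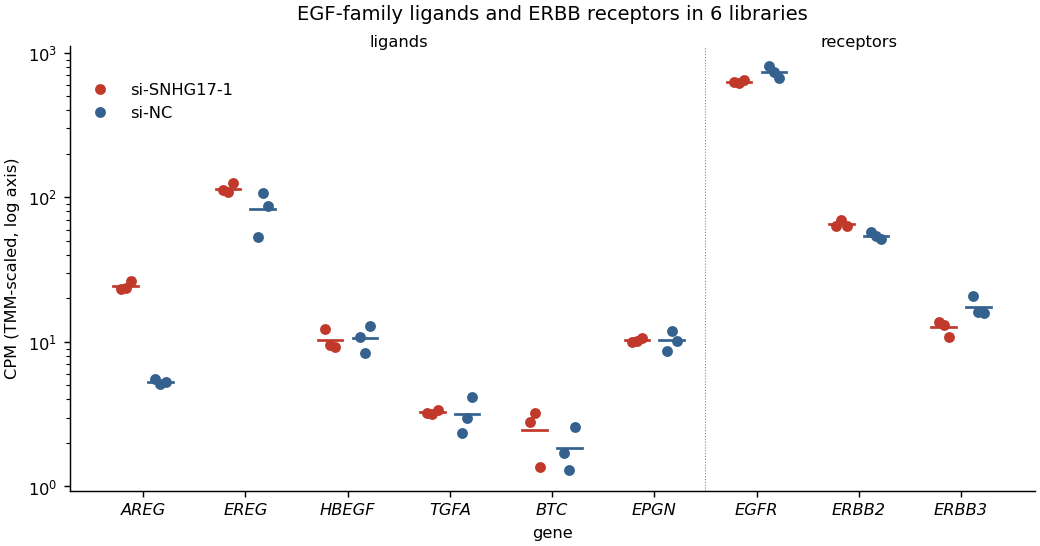
Level of each ligand and receptor gene in CPM on a log axis, with 1 point per library (si-SNHG17-1 red and left, si-NC blue and right) and a bar at the mean of 3 libraries. The AREG points of si-SNHG17-1, 23.4 to 26.6 CPM, lie clear above those of si-NC, 5.13 to 5.55 CPM, while the points of HBEGF, TGFA, BTC and EPGN overlap between groups.

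EREG encodes epiregulin, a ligand of EGFR and ERBB4, and was the most abundant ligand. It had 112, 109.7 and 125 CPM in si-SNHG17-1 libraries, against 53.4, 107 and 87.7 CPM in si-NC libraries. The groups missed each other narrowly, and si-NC replicate 1 lay well under the other si-NC libraries. The log2 fold change was 0.48 ± 0.23 (SE), 0.25 without si-NC replicate 1 and 0.71 without si-NC replicate 2, and EREG was not called in either case.

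HBEGF, the heparin-binding EGF-like growth factor, had 12.2, 9.49 and 9.25 CPM in si-SNHG17-1 libraries and 10.8, 8.45 and 12.9 CPM in si-NC libraries. Its groups overlapped, and the log2 fold change was -0.05 ± 0.20 (SE). EPGN, which encodes epigen, had 10.0, 10.1 and 10.7 CPM in si-SNHG17-1 libraries and 8.63, 12 and 10.1 CPM in si-NC libraries. Its log2 fold change was 0.00 ± 0.16 (SE). EPGN lies 130 kb from AREG on the same strand.

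TGFA and BTC, which encode transforming growth factor alpha and betacellulin, were the least abundant ligands. TGFA had 3.24, 3.18 and 3.39 CPM in si-SNHG17-1 libraries and 2.34, 2.99 and 4.14 CPM in si-NC libraries, with a log2 fold change of 0.05 ± 0.25 (SE). BTC rested on 107, 136 and 42 counts in si-SNHG17-1 libraries and 64, 54 and 102 counts in si-NC libraries. Both genes overlapped between groups, and the BTC log2 fold change of 0.42 ± 0.40 (SE) was close to its own error.

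The receptors differed less between groups than AREG did. EGFR, the receptor of all 6 ligands, had 627, 623 and 648 CPM in si-SNHG17-1 libraries, against 813, 734 and 669.8 CPM in si-NC libraries. All si-SNHG17-1 libraries were lower, with a log2 fold change of -0.22 ± 0.08 (SE), and -0.15 without si-NC replicate 1, the highest library. ERBB2, the receptor without a ligand, had 63.5, 69.7 and 63.1 CPM in si-SNHG17-1 libraries, against 57.3, 53.8 and 51.2 CPM in si-NC libraries, with a log2 fold change of 0.28 ± 0.09 (SE). ERBB3 had 13.8, 13.2 and 10.8 CPM in si-SNHG17-1 libraries, against 20.7, 16.2 and 15.8 CPM in si-NC libraries, with a log2 fold change of -0.47 ± 0.17 (SE). None of the 3 receptors was called, in this fit or in any of the 13 alternatives.

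Some receptor exons are shared with other genes, and the strand setting of the counting is not given in the sources used here. EGFR shares 186 exonic bases with EGFR-AS1 on the other strand, which averaged 1.71 ± 1.19 CPM in si-SNHG17-1 and 2.12 ± 1.47 CPM in si-NC (SD, n = 3 each), far under EGFR itself. ERBB2 shares 571 bases with MIEN1 and 194 with PGAP3, both antisense. MIEN1 averaged 26.5 ± 8.66 CPM in si-SNHG17-1 and 29 ± 8.88 CPM in si-NC, and PGAP3 5.43 ± 0.613 CPM and 7.5 ± 1.98 CPM in the same groups (SD, n = 3 each). Their part in the ERBB2 values was not tested. AC034102.2, which shares 31 bases with ERBB3, did not exceed 0.177 CPM in any library.

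**Figure D2:**
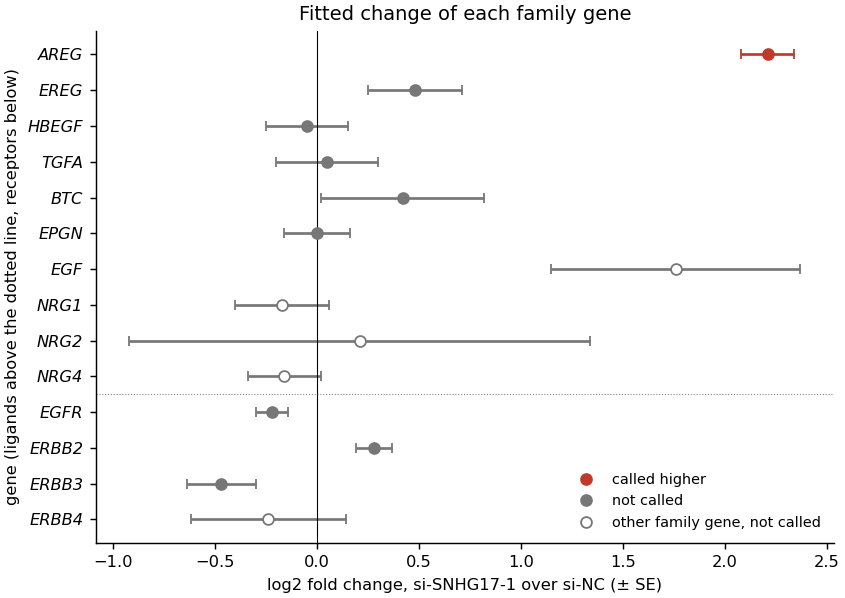
Fitted log2 fold change of si-SNHG17-1 over si-NC with its SE, for the 9 members (filled) and the other tested family genes (open), ligands above the dotted line and receptors below it. AREG, in red, is the called gene at 2.21. EGF lies at 1.76 with a wide error, and the remaining genes lie between -0.47 and 0.48.

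Levels of different genes were compared per kilobase of exon annotated in GENCODE release 29. The ERBB3 identifier of the counts has another version than in that release, so the length used for ERBB3 may differ from the model counted. Among the ligands in si-SNHG17-1, EREG came first with 20.2 ± 1.44 CPM per kb and AREG second with 14.9 ± 1.09, ahead of EPGN with 5.66 ± 0.210 and HBEGF with 3.42 ± 0.547 (SD, n = 3). In si-NC the order was EREG with 14.5 ± 4.74 CPM per kb, EPGN with 5.65 ± 0.947, HBEGF with 3.55 ± 0.739 and AREG with 3.22 ± 0.132 (SD, n = 3). AREG thus moved past EPGN and HBEGF in the order. In si-NC the AREG range of 3.11 to 3.37 CPM per kb lay inside the HBEGF range of 2.80 to 4.28, so these neighbours did not differ beyond their spread. BTC, at 0.875 ± 0.346 in si-SNHG17-1 and 0.659 ± 0.232 CPM per kb in si-NC, and TGFA, at 0.659 ± 0.0212 and 0.636 ± 0.184, ended the order and overlapped in both groups (SD, n = 3).

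The 6 ligands summed to 45.0, 43.9 and 48.1 CPM per kb in si-SNHG17-1 libraries, against 22.1, 32.3 and 30.1 in si-NC libraries. AREG made up 31.6%, 32.5% and 33.5% of this sum in si-SNHG17-1 libraries, against 15.2%, 9.63% and 10.6% in si-NC libraries. Without AREG the sum was 30.8 ± 1.15 CPM per kb in si-SNHG17-1 and 24.9 ± 5.5 in si-NC (SD, n = 3 each), a difference of about the spread of the si-NC libraries. The AREG to EREG ratio per kb, which does not depend on the scaling between libraries, was 0.727, 0.743 and 0.738 in si-SNHG17-1 libraries, against 0.361, 0.166 and 0.208 in si-NC libraries. The high value of si-NC replicate 1 came with its low EREG level, since its AREG level was near that of the other si-NC libraries.

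EGFR was by far the most abundant receptor. Per kb it was at 50.6 ± 1.07 CPM in si-SNHG17-1 and 59.0 ± 5.72 in si-NC, followed by ERBB2 at 6.34 ± 0.359 and 5.24 ± 0.297 and ERBB3 at 1.40 ± 0.174 and 1.94 ± 0.303 (SD, n = 3 each). No ranges of neighbouring receptors overlapped. The EGFR to ERBB2 ratio was 8.15, 7.37 and 8.46 in si-SNHG17-1 libraries, against 11.7, 11.2 and 10.8 in si-NC libraries. The ERBB2 to ERBB3 ratio was 4.02, 4.63 and 5.10 in si-SNHG17-1 libraries, against 2.42, 2.92 and 2.84 in si-NC libraries. The groups did not overlap in either ratio. The EGFR to ERBB3 ratio overlapped, at 32.7, 34.2 and 43.2 in si-SNHG17-1 libraries and 28.3, 32.8 and 30.7 in si-NC libraries. These ratios were not tested, and none of the receptors was called. The ligand sum reached 0.897, 0.883 and 0.929 of the EGFR level in si-SNHG17-1 libraries, against 0.341, 0.551 and 0.563 in si-NC libraries.

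**Figure D3:**
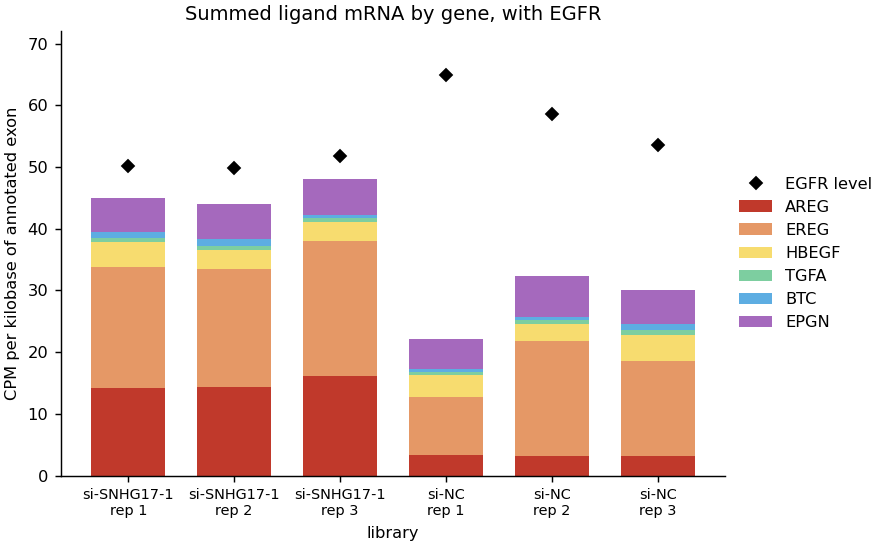
Stacked bars of the 6 ligand levels and diamonds of the EGFR level in each library, in CPM per kilobase of annotated exon, si-SNHG17-1 on the left and si-NC on the right. The AREG segment fills 31.6% to 33.5% of the bar in si-SNHG17-1 libraries and 9.63% to 15.2% in si-NC libraries, while the EREG segment is the largest in each bar.

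None of the other family genes was called. EGF, the ligand that gives the family its name, had 32, 32 and 15 counts in si-SNHG17-1 libraries, against 8, 4 and 12 counts in si-NC libraries. The groups did not overlap, but EGF was not called, with a log2 fold change of 1.76 ± 0.61 (SE) and an edgeR adjusted p of 0.113. The neuregulins are ligands of ERBB4, and only some of them also bind ERBB3. NRG4 averaged 15.7 ± 2.23 CPM in si-SNHG17-1 and 17.6 ± 3.26 CPM in si-NC, and NRG1 averaged 7.58 ± 1.89 and 8.55 ± 1.58 CPM in the same groups (SD, n = 3 each). NRG2 was uneven, from 0 to 57 counts in si-NC libraries, and NRG3 had 0 counts in every library. The receptor ERBB4 had 1.78, 4.23 and 1.79 CPM in si-SNHG17-1 libraries and 2.44, 3.43 and 3.38 CPM in si-NC libraries. Of the 6 genes of this list, 5 were tested and none was called by edgeR. Among all tested genes, 5.25% were called higher and 5.21% lower.

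Within 500 kb of AREG, 8 other genes were tested, 2 of them were called higher and none lower, where 5.25% and 5.21% of all tested genes were called in those directions. CXCL2, a neutrophil-attracting chemokine, had 28.6, 35.2 and 34.3 CPM in si-SNHG17-1 libraries, against 11.4, 10.9 and 13.5 CPM in si-NC libraries. It lies 346 kb from AREG, and its log2 fold change was 1.45 ± 0.14 (SE, edgeR adjusted p = 0.00237). CXCL3, a chemokine of the same family 406 kb away, averaged 6.96 ± 0.788 CPM in si-SNHG17-1 and 3.31 ± 0.573 CPM in si-NC (SD, n = 3 each; edgeR adjusted p = 0.0178). CXCL3 lost the call without si-SNHG17-1 replicate 1 or 2, with edgeR adjusted p of 0.0745 and 0.0597. EPGN and EREG lie between these chemokine genes and AREG and were not called. MTHFD2L and PARM1, with log2 fold changes of 0.44 ± 0.18 and 1.13 ± 0.39 (SE), and AC093677.2, with 0.63 ± 0.64, were not called either, nor was BTC on the far side of AREG.

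**Figure D4:**
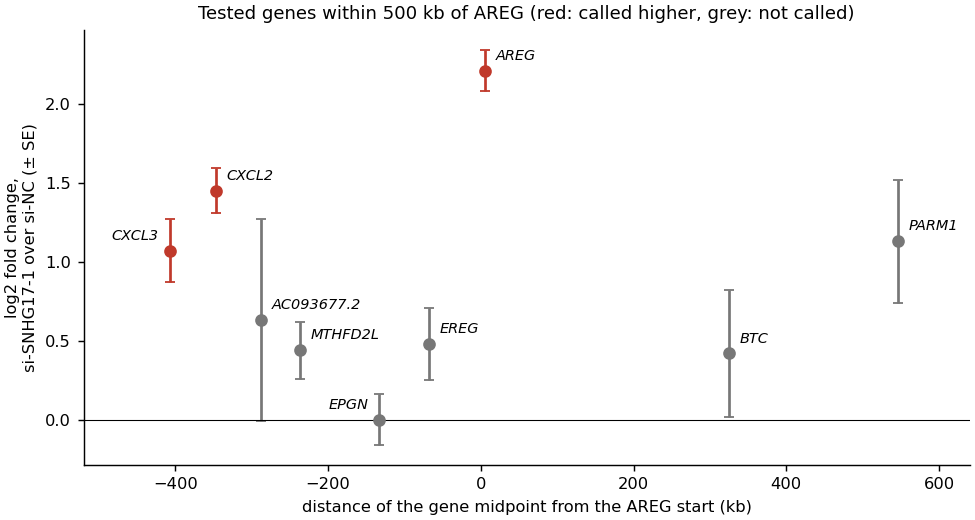
Log2 fold change of si-SNHG17-1 over si-NC with its SE for AREG and the 8 tested genes within 500 kb, by the distance of each gene's midpoint from the AREG start in kb. AREG at 2.21, CXCL2 at 1.45 and CXCL3 at 1.07 are called higher (red), and EPGN and EREG between them lie at 0.00 and 0.48 (grey).

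Of the nearest tested genes beside the other members, leaving out genes that overlap them, PA2G4 and RPS26 were called lower and none higher. Both lie next to ERBB3, and of all tested genes 5.21% were called lower and 5.25% higher. PA2G4, which encodes a protein known to bind ERBB3 and starts 0.814 kb beyond ERBB3, averaged 395 ± 46.7 CPM in si-SNHG17-1 and 539.8 ± 8.10 CPM in si-NC (SD, n = 3 each). It fell by 0.45 on the log2 scale (SE 0.09, edgeR adjusted p = 0.0229). RPS26, a ribosomal protein gene on the other side of ERBB3, fell by 0.28 (SE 0.06, edgeR adjusted p = 0.0313). AC034102.4, which shares 434 exonic bases with PA2G4 on the other strand, averaged 30.1 CPM in si-SNHG17-1 and 44.4 CPM in si-NC. Its part in the PA2G4 values was not tested. PA2G4 was no longer called without si-NC replicates 2 or 3 (0.0605 and 0.0679) or si-SNHG17-1 replicate 1 (0.0848), and RPS26 without any 1 of the 6 libraries (0.0536 to 0.131). GRB7, which encodes an adaptor that binds ERBB2 and lies 7.5 kb beyond it, averaged 8.98 ± 1.24 CPM in si-SNHG17-1 and 6.19 ± 1.74 CPM in si-NC and was not called (edgeR adjusted p = 0.199). TCAP beside ERBB2, SEC61G and AC073324.2 beside EGFR, PFDN1 and ANKHD1 beside HBEGF, and FAM136A and TEX261 beside TGFA were not called either. ANKHD1 shares 7629 exonic bases on the same strand with ANKHD1-EIF4EBP3, which averaged 87.2 CPM in si-SNHG17-1 and 80.7 CPM in si-NC. The part of ANKHD1-EIF4EBP3 in the ANKHD1 values was not tested.

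The 5 genes whose log2 CPM followed AREG most closely over the 6 libraries were SMCR8, GPRIN1, TPM4, FAM210B and PTGS2, with Pearson's r of 0.9987, 0.9981, 0.9981, 0.9981 and 0.9970 among 11478 genes ranked. The points fall into 2 groups and share depth and library, and 475 of the ranked genes had r above 0.95. PTGS2, the inducible cyclooxygenase, had 110.0, 110.2 and 117 CPM in si-SNHG17-1 libraries, against 36.0, 39.1 and 36.0 CPM in si-NC libraries. TPM4, a tropomyosin, averaged 1289 ± 45.2 CPM in si-SNHG17-1 and 409 ± 7.10 CPM in si-NC (SD, n = 3 each), and AC008894.3, which shares 658 exonic bases with it on the other strand, 154 CPM and 51.7 CPM. SMCR8, GPRIN1 and FAM210B were higher by smaller folds of 1.47, 1.72 and 1.62.

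Other genes of the pathway came from 6 lists drawn up with earlier results of these data known. Of 113 genes listed, 108 were tested, 18 were called higher and 9 lower, or 16.7% and 8.33%, against 5.25% and 5.21% of all tested genes. The same shares are the background for the counts of each list. The listed genes had a median log2 fold change of 0.02 against -0.002 over all tested genes. The listed genes were more abundant than most, with a median level of 63.5 CPM against 16.7 CPM for all tested genes. Of the 24 called genes described below, 9 kept the call in all 13 alternatives: ADAM17, ADAM9, SHC1, PTPRJ, DUSP5, JUN, IER3, CCND1 and PTGS2. For the 14 that lost it on leaving out a library, the log2 fold change in those 58 fits was 82.9% to 113% of that with all libraries.

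Genes of ligand release changed in both directions, with 2 of 13 called higher, 3 lower and a median log2 fold change of -0.13. ADAM17, the main protease known to release amphiregulin, had 56.8, 53.6 and 60.3 CPM in si-SNHG17-1 libraries, against 88.9, 90.3 and 90.6 CPM in si-NC libraries. It fell by 0.66 on the log2 scale (SE 0.08, edgeR adjusted p = 0.00429), opposite in direction to AREG. IAH1, which shares 1257 exonic bases with ADAM17 on the other strand, averaged 46.5 CPM in si-SNHG17-1 and 48.7 CPM in si-NC. ADAM9, a related protease, fell to 89.2 ± 11.7 CPM in si-SNHG17-1, against 179 ± 26.1 CPM in si-NC (SD, n = 3 each; edgeR adjusted p = 0.00598). ADAM10, which releases betacellulin and EGF, averaged 93.1 ± 8.66 CPM in si-SNHG17-1 and 82.2 ± 5.22 CPM in si-NC and was not called. The ADAM17 partners RHBDF1 and RHBDF2 were not called, with log2 fold changes of 0.02 ± 0.16 and -0.27 ± 0.17 (SE).

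ADAM15 averaged 151 ± 10.5 CPM in si-SNHG17-1 and 93.1 ± 15.1 CPM in si-NC, and ADAM12 14.1 ± 0.329 CPM and 8.01 ± 2.07 CPM in the same groups (SD, n = 3 each). Both were called higher, with edgeR adjusted p of 0.0173 and 0.0403. TIMP3, an inhibitor of ADAM17, fell by 0.51 on the log2 scale (SE 0.09, edgeR adjusted p = 0.0153). These 3 calls were lost with some libraries left out, while the log2 fold changes stayed at 0.65 and 0.72 for ADAM15, -0.47 and -0.48 for TIMP3 and 0.68 to 0.85 for ADAM12. ADAM15 lost its call without si-SNHG17-1 replicates 1 or 3 (0.0697 and 0.0564), TIMP3 without si-SNHG17-1 replicates 1 or 2 (0.0739 and 0.0646), and ADAM12 on leaving out any single library other than si-NC replicate 2 (0.0954 to 0.120).

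Among 29 adaptors and core signalling genes, 5 were called higher and 1 lower, with a median log2 fold change of 0.02. SHC1, an adaptor that links activated EGFR to GRB2, had 108, 113 and 103 CPM in si-SNHG17-1 libraries, against 181, 165 and 168 CPM in si-NC libraries. It fell by 0.66 on the log2 scale (SE 0.08, edgeR adjusted p = 0.00371). AL451085.2, which shares 326 exonic bases with SHC1 on the other strand, averaged 9.39 CPM in si-SNHG17-1 and 12.3 CPM in si-NC. PTPN11, the phosphatase SHP2 that transmits receptor signals, averaged 342 ± 8.65 CPM in si-SNHG17-1 and 248 ± 17.8 CPM in si-NC (SD, n = 3 each) and rose by 0.47 (SE 0.07, edgeR adjusted p = 0.00994). PLCG1, a phospholipase activated by the receptors, GAB1, a docking protein, and STAT3, a transcription factor, rose by 0.39, 0.67 and 0.26 on the log2 scale. PLCG1 lost the call on leaving out any single library other than si-NC replicate 1 (edgeR adjusted p of 0.0600 to 0.0869), and GAB1 and STAT3 on leaving out any of the 6 (0.0593 to 0.124 and 0.0544 to 0.116).

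Of 24 inhibitors and turnover genes, 2 were called higher and 2 lower, with a median log2 fold change of 0.00. PTPRJ, a receptor phosphatase that acts on EGFR, had 58.5, 58.5 and 55.3 CPM in si-SNHG17-1 libraries, against 36.7, 34.3 and 34.2 CPM in si-NC libraries, and rose by 0.71 on the log2 scale (SE 0.09, edgeR adjusted p = 0.00454). ERRFI1, an inhibitor that binds the EGFR kinase, averaged 45.4 ± 2.81 CPM in si-SNHG17-1 and 31.4 ± 3.26 CPM in si-NC, and RASA1, which switches RAS off, 16.4 ± 1.87 CPM and 25.9 ± 3.29 CPM in the same groups (SD, n = 3 each). ERRFI1 was called higher (edgeR adjusted p = 0.0288), RASA1 lower (0.0340) and SPRED2, an inhibitor of RAS signalling, lower by a log2 fold change of -0.37 (0.0427). ERRFI1 lost its call on leaving out any library other than si-NC replicate 2 (0.0579 to 0.0971), RASA1 any other than si-NC replicate 3 (0.0751 to 0.124) and SPRED2 any of the 6 (0.0721 to 0.159).

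ERK-responsive genes, which are switched on downstream of the receptors, gave 6 calls higher and 3 lower of 22 tested, with a median log2 fold change of 0.15. DUSP5, a phosphatase of ERK, had 77.0, 86.0 and 74.6 CPM in si-SNHG17-1 libraries, against 48.3, 46.1 and 46.5 CPM in si-NC libraries. It rose by 0.75 on the log2 scale (SE 0.09, edgeR adjusted p = 0.00387). JUN, an AP-1 subunit, rose to 148 ± 6.97 CPM in si-SNHG17-1, against 76.7 ± 12.5 CPM in si-NC (SD, n = 3 each). IER3, an early response gene, rose to 561 ± 35.6 CPM in si-SNHG17-1, against 386 ± 23.2 CPM in si-NC (SD, n = 3 each). IER3-AS1, which shares 359 exonic bases with IER3 on the other strand, averaged 26.1 CPM in si-SNHG17-1 and 20.5 CPM in si-NC. EGR1, an early transcription factor, was called higher as well, at 13.3 ± 1.45 CPM in si-SNHG17-1 and 7.41 ± 0.940 CPM in si-NC (SD, n = 3 each; edgeR adjusted p = 0.0193).

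In the other direction, CCND1, the cyclin D1 gene, had 242, 232 and 230.2 CPM in si-SNHG17-1 libraries, against 464, 476 and 496 CPM in si-NC libraries, and fell by 1.03 on the log2 scale (SE 0.06, edgeR adjusted p = 0.000413). LTO1, which shares 497 exonic bases with CCND1 on the other strand, averaged 23.9 CPM and 45.1 CPM in the same groups, and reads of such pairs may be mixed. ETV4, a transcription factor induced by ERK, and HMGA2, a chromatin protein, fell by 0.50 and 1.29. DUSP6, another ERK phosphatase, was at 11.1 ± 0.332 CPM in si-SNHG17-1 and 11.4 ± 0.189 CPM in si-NC (SD, n = 3 each), with a log2 fold change of -0.04 ± 0.12 (SE). EGR1 lost its call without si-NC replicates 1 or 3 or si-SNHG17-1 replicates 2 or 3 (edgeR adjusted p of 0.0506 to 0.0730). ETV4 lost it without si-NC replicate 3 or any si-SNHG17-1 replicate (0.0525 to 0.0712), and HMGA2 on leaving out any library other than si-NC replicate 1 (0.0753 to 0.103).

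Genes reported to act on AREG transcription gave 3 calls higher and none lower of 15 tested, with a median log2 fold change of 0.22. PTGS2, given above, makes the precursor of prostaglandin E2, a known inducer of AREG through cAMP, and rose by 1.60 on the log2 scale (SE 0.08, edgeR adjusted p = 0.000252). EPAS1, the hypoxia-inducible factor 2 alpha gene, averaged 367 ± 32.0 CPM in si-SNHG17-1 and 246 ± 23.3 CPM in si-NC, and its dimer partner ARNT 116 ± 6.01 CPM and 83.3 ± 4.86 CPM in the same groups (SD, n = 3 each). Their edgeR adjusted p were 0.0125 and 0.0130. EPAS1 lost the call without si-SNHG17-1 replicate 1 (0.0586) and ARNT without si-SNHG17-1 replicates 1 or 3 (0.0586 and 0.0544). YAP1, a coactivator of TEAD factors, and CREB1, a factor that binds the cAMP response element, were not called, with log2 fold changes of 0.27 ± 0.10 and -0.51 ± 0.40 (SE). PTGER2, PTGER4 and CRTC2 of the same list were not called either, with 0.97 ± 0.45, 0.14 ± 0.18 and 0.18 ± 0.10 (SE). PTGER2 averaged only 1.09 CPM in si-SNHG17-1 and 0.553 CPM in si-NC. Whether PTGS2 or any other listed gene had a part in the AREG change was not tested.

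**Figure D5:**
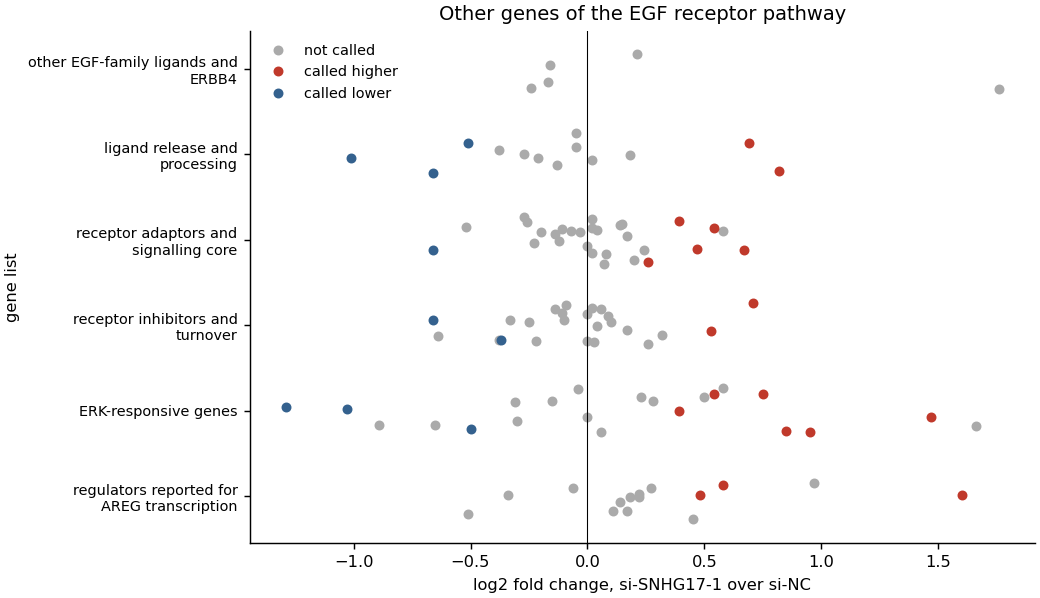
Log2 fold change of si-SNHG17-1 over si-NC for each tested gene of the 6 pathway lists, 1 point per gene, red where called higher, blue where called lower and grey where not called. Called genes lie on both sides of 0 in the lists of ligand release, adaptors, inhibitors and ERK-responsive genes, and PTGS2 at 1.60 is the right-most called point.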

How the data were processed

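RNA was measured in 6 libraries of cells labelled Hep3B, grouped by their titles. The authors deposited raw counts per gene for 58243 genes. Reads were aligned with HISAT2 to GRCh38, per the submitters' processing notes, and the counting program, annotation release and strand setting are not stated in the sources used here. Library totals of 30207055 to 42271168 set a floor of 3 counts at 0.0712 to 0.0977 CPM, which covers counting error only. In each library 4 to 11 genes, none of them a member, stood at 0 where the remaining replicates of that group each held 50 counts or more, so the deposited counts may not be plain tallies of reads.

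The members and gene lists were chosen with earlier results of these data known. Counts were tested with edgeR 4.0.16 in R 4.3.3, using filterByExpr defaults (minimum count 10, minimum total 15; 18679 genes kept), TMM scaling, the quasi-likelihood test and Benjamini-Hochberg adjustment across the kept genes. Calls required an adjusted p below 0.05. Alternatives used DESeq2 1.42.0, limma 3.58.1 with voom, other scalings and filters, a replicate block and each library left out. Exon lengths came from GENCODE release 29, and promoters from RefSeq (GRCh38.p14). Release 29 held 57980 of the identifiers with the version ignored and 55619 with the same version.

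Named genes were all members, SNHG17 and up to 4 called genes per direction of each pathway list by smallest adjusted p (the 2 most abundant where none was called). They also included the 5 genes with the highest r with AREG at a mean of 5 CPM or more and tested genes within 500 kb of AREG. The nearest tested gene on each side of other members was added, leaving out genes that overlap the member. Other genes named, such as ADAM10, DUSP6, YAP1 and the genes sharing exons, were picked after their values were seen. Likeness and the permutation test used log2 of CPM with 0.1 added.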

Additional observations from a re-analysis of the deposited data

How the results depend on the processing

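The log2 fold change of AREG was 2.16 to 2.25 over the 13 alternatives. AREG was called higher and SNHG17 lower in all 13, and no other member was called in any of them. The alternatives refit the same libraries, in which the change of AREG was already known, so its calls there add no independent support. Of the pathway genes, 18 were called higher and 9 lower. A replicate block left 7 higher and 4 lower, and leaving out a single library gave 7 to 15 higher and 4 to 8 lower, with fewer libraries in the fit. PTPN11 lost its call with the replicate block alone (edgeR adjusted p = 0.0547). Same-numbered libraries deviated with correlations of -0.0172, -0.0367 and -0.0153. No shared deviation by replicate number was seen, which cannot exclude that same-numbered libraries were handled together. Over all genes, 980 were called higher and 974 lower, against 273 and 259 with the replicate block and 313 to 694 and 264 to 705 with a single library left out. Without the filter on low counts, 670 were called higher and 627 lower. DESeq2 called 1424 and 1395, and total counts without TMM called 1168 and 781, with a median shift of 0.039. The comparison of EGF-like domains between ligands was not run. Depth limits the lowest genes most, such as EGF with 4 to 32 counts per library.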

Other observations

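Among the cell type markers, 3 genes outside the EGF pathway were called higher and none lower. Of all tested genes, 5.25% were called higher and 5.21% lower, and nothing is read from the marker count. CDH5, the VE-cadherin of endothelial cells, had 6.8, 5.72 and 5.14 CPM in si-SNHG17-1 libraries, against 1.46, 2.47 and 1.16 CPM in si-NC libraries (edgeR adjusted p = 0.0135, and 0.0630 and 0.0509 without si-SNHG17-1 replicate 1 or 2), while KDR, another endothelial marker, was at 0 in all libraries. PECAM1, of the same list, lay the other way without overlap, at 0.592 ± 0.269 CPM in si-SNHG17-1 and 1.37 ± 0.516 CPM in si-NC (SD, n = 3 each), and was not called. TP63, a transcription factor of squamous epithelium, averaged 0.988 ± 0.193 CPM in si-SNHG17-1 and 0.110 ± 0.02 CPM in si-NC (SD, n = 3 each). Its edgeR adjusted p was 0.0118, and 0.0643 without si-SNHG17-1 replicate 1 or 2. TP63 rested on 39, 49 and 24 counts in si-SNHG17-1 libraries. In si-NC libraries it had 5, 4 and 4 counts, close to the floor of 3 counts. COL1A1, a collagen gene, averaged 107 ± 10.1 CPM in si-SNHG17-1 and 83.6 ± 2.79 CPM in si-NC (edgeR adjusted p = 0.0485), and it lost the call on leaving out any of the 6 libraries (0.0641 to 0.138). PDGFRB, another fibroblast marker, was lower without overlap, at 6.65 ± 0.944 CPM in si-SNHG17-1 and 8.11 ± 0.242 CPM in si-NC, and KRT14, another squamous marker, was at 2.32 ± 0.850 CPM in si-SNHG17-1 and 3.36 ± 0.792 CPM in si-NC (SD, n = 3 each), neither of them called.

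MYC, picked after its values were seen, had 144, 155 and 14.2 CPM in si-SNHG17-1 libraries and 136, 179 and 178 CPM in si-NC libraries. The low value of si-SNHG17-1 replicate 3 stood alone, and MYC was not called.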
